A study of Mus musculus with 12 samples.

Results

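The S100 genes described here are 10 members of the family of small calcium-binding proteins named for it: S100a1, S100a4, S100a6, S100a8, S100a9, S100a10, S100a11, S100a13, S100a14 and S100a16. They were found on the arrays as probe sets that carry the symbol of one member and of no other gene, and 9 of the 10 were measured in this way, among 18193 genes tested. S100a11 has 1 probe set, which carries the symbols of other genes too, and it was not analysed here. Of several probe sets of a member, the brightest by its mean over all 12 arrays stands for it; that mean chose the probe set and is not a result. The members were chosen by family, with earlier results of these data known.

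Total RNA of mouse tumours of 3 lung adenocarcinoma lines was measured on Affymetrix arrays, with 4 arrays per line. 344SQ, which the labels call highly metastatic, was derived from a subcutaneous site of mouse 344. 393LN, labelled intermediately metastatic, came from a mediastinal lymph node of mouse 393, and 393P, labelled non-metastatic, from a primary lung tumour of that same mouse. Both mice carried the p53R172H∆g/+ allele, so every group shares a mutant p53. The lines are mass cultures passaged in RPMI 1640 with 10% serum, and the tumours were grown in syngeneic mice whose age and sex are not given in the sources used here. Each line stands for 1 tumour site of 1 mouse, and 344SQ differs from both 393 lines in mouse of origin, so line, site and mouse cannot be told apart. Nothing in the labels says whether the 4 arrays of a line came from separate animals, so the p-values measure the spread between these samples, which may be technical.

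The median log2 intensity of an array ranged from 7.19 to 7.29. The 3' to 5' ratio of the actin controls, which reflects how intact the RNA was, ranged from 1.04 to 1.19 on 11 arrays and reached 1.47 on the remaining one, 393P replicate 1. The keratin genes Krt8 and Krt18 and the E-cadherin gene Cdh1 were bright in all 3 lines. The lung lineage factor Nkx2-1 averaged 4.24, 4.18 and 4.15 in 344SQ, 393LN and 393P, next to the floor of the scale at 4.09. All levels are log2(intensity + 16), and a change is the difference of 2 such means, which understates the change of dim genes. Levels of different genes are not set against each other, since probe sets differ in brightness. In whole tumours, fewer cells of a type and less RNA per cell cannot be told apart.

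S100 proteins are small proteins with paired EF hands, the helix-loop-helix folds that hold calcium. Most form dimers, and calcium binding opens a surface through which they grip target proteins such as annexins and myosin. Several are also secreted and act outside the cell on the receptors RAGE, encoded by Ager, and TLR4. Most of the genes lie side by side on mouse chromosome 3, and they differ in where they are expressed: some are widespread, some mark epithelium, some motile and mesenchymal cells, and S100a8 and S100a9 mark neutrophils and monocytes.

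Within the family the lines differed in opposite directions. In 344SQ against 393P, 3 of the 9 measured members were higher (S100a4, S100a13 and S100a1) and 1 was lower (S100a14), at an adjusted p under 0.05 from limma with Benjamini-Hochberg adjustment over all 18193 genes. Of all genes tested, 4.86% were called higher and 5.62% lower in that comparison. The call of S100a1 was near the threshold and ended when any of 7 arrays was left out, all but 344SQ replicate 4. In 344SQ against 393LN, 2 members were higher (S100a4 and S100a13) and 1 was lower (S100a14), where 3.99% of all genes were called higher and 6.92% lower. These comparisons share the 4 344SQ arrays. In 393LN against 393P none of the 9 members passed in either direction, where 2.45% of all genes were called, 1.75% as higher and 0.698% as lower; by limma 0 members had an unadjusted p under 0.05, and the lowest adjusted p was 0.432. The median change of the 9 members was -0.17, -0.15 and 0.050 in the 3 comparisons, against -0.00066, -0.017 and 0.0095 over all genes.

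**Figure D1:**
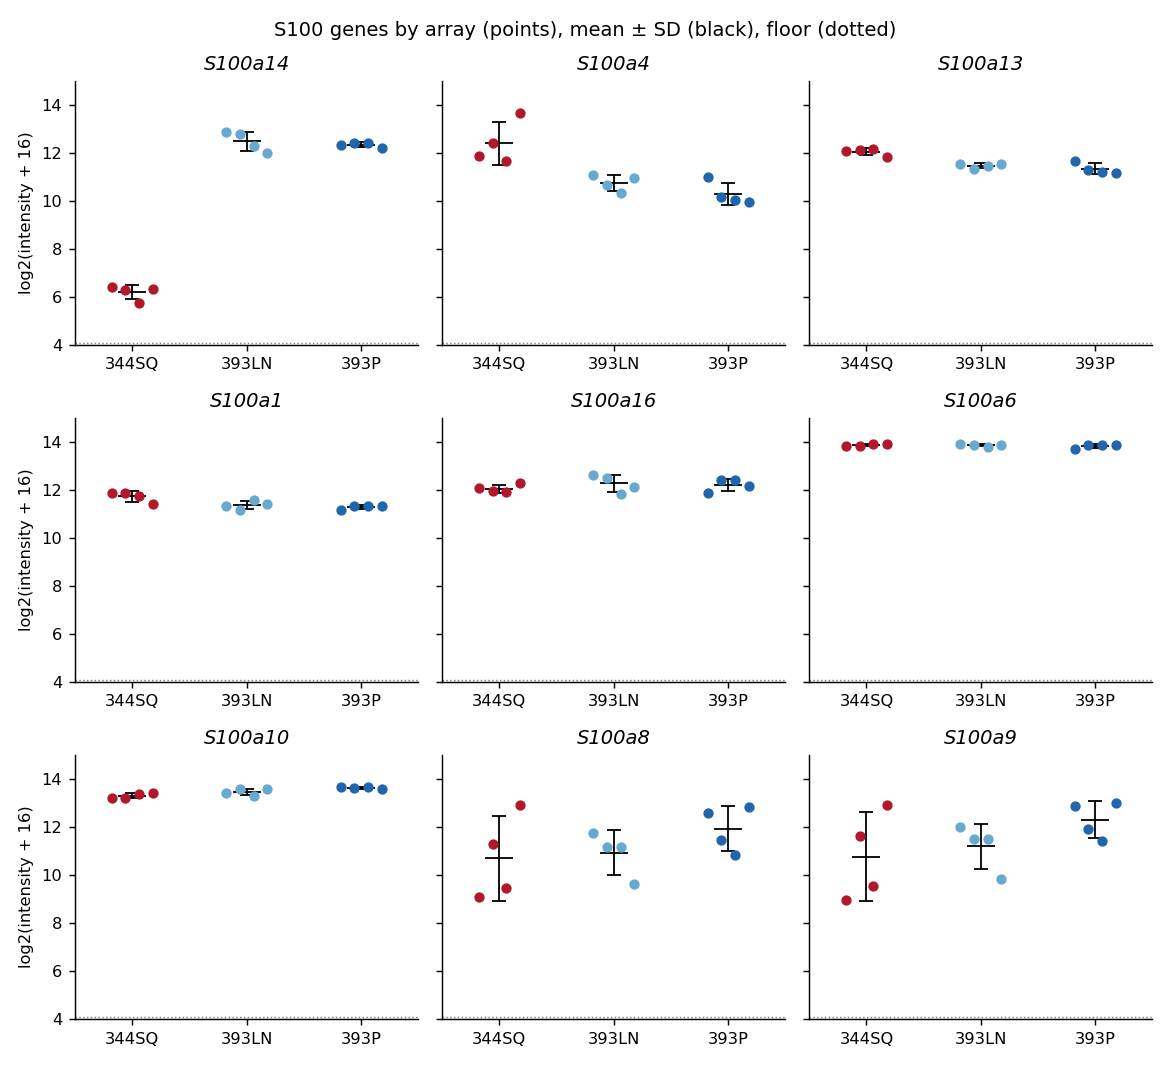
Levels of the 9 measured S100 members, as log2(intensity + 16) on the vertical axis, on the 4 arrays of 344SQ, 393LN and 393P (points), with mean and SD in black and the floor of the scale dotted. S100a14 sits between 5.76 and 6.39 in 344SQ and above 12 in both 393 lines, and S100a8 and S100a9 spread widely within each line.

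S100a14 encodes a family member found in epithelia. Its level was 6.39, 6.27, 5.76 and 6.32 on the 344SQ arrays, against 12.86, 12.77, 12.30 and 12.02 on the 393LN arrays and 12.34, 12.43, 12.39 and 12.22 on the 393P arrays. The 4 344SQ values lay far below all 8 values of the 393 lines, and the values of 393LN and 393P overlapped. The change was -6.17 ± 0.19 (SE, n = 4 per line) against 393P, with a limma adjusted p of 6.17e-09, and -6.31 ± 0.19 against 393LN, with an adjusted p of 5.74e-09. With a pseudocount of 1 in place of 16, which compresses dim values less, the changes were -6.50 and -6.64. In 393LN against 393P its change was 0.14, with a 95% confidence interval from -0.28 to 0.56.

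Other epithelial genes were low on the same arrays. Of 12 markers of epithelial cells, 7 fell in 344SQ against 393P and the same number against 393LN, where 5.62% and 6.92% of all genes were called lower. The mean level of the list was 9.83 to 10.22 in 344SQ, 12.46 to 12.92 in 393LN and 12.52 to 12.99 in 393P. Krt8, Krt18 and Cdh1 were not among the 7. Among 9664 other genes whose highest line mean lay above the median gene, those whose levels followed S100a14 most closely over the 12 arrays were Lama3, Esrp1, Spns2, Ap1m2 and Myo3b, with Pearson correlations of 0.998, 0.996, 0.993, 0.992 and 0.991. The 12 points fall into a low group of 4 344SQ arrays and a high group of 8, so these values mostly record that shared step. Esrp1, which encodes a splicing regulator of epithelial cells, averaged 4.45 in 344SQ, near the floor, against 11.15 in 393LN and 11.51 in 393P.

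S100a4, which encodes a protein that binds the heavy chain of non-muscle myosin and is known from motile, mesenchymal and metastatic cells, was the member with the largest rise. Its level was 11.86, 12.39, 11.66 and 13.68 in 344SQ, against 11.07, 10.67, 10.33 and 10.97 in 393LN and 10.98, 10.17, 10.05 and 9.96 in 393P. Every 344SQ array lay above every array of the 393 lines, and replicate 4 was the highest of 344SQ. The change was 2.11 ± 0.39 against 393P (4.30-fold, limma adjusted p = 0.00462) and 1.64 ± 0.39 against 393LN (3.11-fold, adjusted p = 0.0190). Without 344SQ replicate 4 the changes were 1.68 and 1.21 and both still passed. The call against 393LN ended without 344SQ replicate 2 (adjusted p = 0.0508) or 393LN replicate 3 (adjusted p = 0.0581). Of 393LN and 393P, 393LN had the higher mean, 10.76 ± 0.33 against 10.29 ± 0.47 (SD, n = 4 each), a change of 0.47 that did not pass (adjusted p = 0.635).

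A list of 8 genes of the mesenchymal state also moved between these lines. In 344SQ against 393P, 6 of them were higher and 0 lower (median 0.98), where 4.86% of all genes were called higher. Zeb2 and Fn1 did not pass, and the change of Fn1 was -0.17. In 344SQ against 393LN 3 were higher, Cdh2, Zeb1 and Snai2 (median 0.76), where 3.99% of all genes were called higher. The list was written with earlier results of these data known. Against 393P the calls of Cdh2, Zeb1, Vim and Snai2 held when any array was left out. That of Snai1 ended without any of 7 arrays (all but 344SQ replicate 4) and that of Twist1 without any of 5 (344SQ replicates 1, 2 and 3 and 393P replicates 1 and 4). Against 393LN the call of Snai2 ended without 393LN replicate 3. The list's mean level was 10.02 to 10.44 in 344SQ, 9.23 to 9.57 in 393LN and 9.01 to 9.41 in 393P. Within 344SQ, S100a4 did not follow it: replicate 4, with the highest S100a4, had the lowest mean of the mesenchymal list (10.02) and the highest mean of the neutrophil list (8.85). S100a4 is also made by fibroblasts and leukocytes. Of 14 fibroblast markers 0 passed by limma in either comparison with 344SQ, where 10.5% (393P) and 10.9% (393LN) of all genes were called. In each comparison 5 of the 14 had an unadjusted p under 0.05, for which the share of all genes was not computed. The median change of the fibroblast list was 0.38 against 393P and 0.35 against 393LN. Its mean was 11.77 to 12.10 in 344SQ, 11.33 to 11.90 in 393LN and 11.34 to 11.80 in 393P. Once line means were taken off, S100a4 correlated with the neutrophil list with an r of 0.77 and with the mesenchymal list with an r of -0.57, over 12 arrays of shared RNA. The r was -0.74 with T, NK and B cells, -0.48 with macrophages and monocytes, -0.36 with endothelial cells and -0.29 with squamous cells. It was -0.09 with fibroblasts, 0.07 with epithelial cells and 0.31 with skeletal muscle. How far these values rest on 344SQ replicate 4 was not tested. What fibroblasts and leukocytes contribute to the level of S100a4 was not tested.

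The upstream letters of S100a4 are shown because it was the member that rose most in 344SQ. They are the 250 bases before the start in RefSeq (GRCm38.p6, plus strand, chr3:90603520-90603769), with the motif match in capitals.
S100a4: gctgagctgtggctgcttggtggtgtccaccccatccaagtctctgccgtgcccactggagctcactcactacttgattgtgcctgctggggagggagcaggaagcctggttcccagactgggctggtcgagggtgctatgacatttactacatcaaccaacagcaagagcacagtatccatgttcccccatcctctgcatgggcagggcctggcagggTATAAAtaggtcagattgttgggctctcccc
Both strands were searched for 4 motifs in all 32841 windows of 250 bases in the RefSeq table. The TATA box, TATAAA, occurs in 12.4% of them. The C/EBP motif, TTGCNNAA, occurs in 9.57%. The AP-1 motif, TGANTCA, occurs in 6.75%. The E-box bound by Zeb and Snail factors, CAGGTG, occurs in 17.2%. In S100a4 the match to TATAAA begins 31 bases before the start, and the other 3 motifs had no match in this window. A match is a description of the letters and not a measured site.

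S100a13, whose protein helps to release FGF1 and interleukin-1 alpha from cells by a route outside the classical secretory pathway, was higher in 344SQ by a smaller step. Its level was 12.07, 12.14, 12.18 and 11.83 in 344SQ, against 11.55, 11.32, 11.47 and 11.55 in 393LN and 11.68, 11.27, 11.22 and 11.18 in 393P. The 344SQ values lay above all 8 others, and those of the 393 lines overlapped. The change was 0.71 ± 0.13 against 393P (1.64-fold, limma adjusted p = 0.00419) and 0.58 ± 0.13 against 393LN (1.49-fold, adjusted p = 0.0142). Fgf1, a growth factor gene whose product S100A13 carries, was higher as well, at 10.19, 9.87, 9.74 and 9.32 in 344SQ, 8.55, 8.40, 8.53 and 8.29 in 393LN and 8.87, 8.64, 8.23 and 8.48 in 393P. Its changes were 1.23 ± 0.18 (adjusted p = 0.00112) and 1.34 ± 0.18 (adjusted p = 0.000756). Both genes had their lowest 344SQ value on replicate 4.

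S100a1, a regulator of calcium release and uptake in heart and skeletal muscle, had levels of 11.87, 11.90, 11.74 and 11.43 in 344SQ, against 11.33, 11.15, 11.57 and 11.43 in 393LN and 11.16, 11.33, 11.33 and 11.35 in 393P. The 344SQ values lay above those of 393P, with the lowest 344SQ value, 11.43, just above the highest 393P value, 11.35, and overlapped those of 393LN. The change was 0.44 ± 0.13 against 393P (limma adjusted p = 0.0455) and 0.36 ± 0.13 against 393LN (adjusted p = 0.0903). In a separate limma fit over all 34945 probe sets with 1 symbol, this probe set passed in neither comparison (adjusted p = 0.0600 and 0.115). In that fit its other probe set had changes of 0.36 against 393P (adjusted p = 0.0668) and 0.41 against 393LN (adjusted p = 0.0400). Of 6 skeletal muscle markers, 0 passed by limma in any comparison, and 0 had an unadjusted p under 0.05. The share of all genes called was 10.5% in 344SQ against 393P, 10.9% in 344SQ against 393LN and 2.45% in 393LN against 393P. In the reference annotation S100a1 and S100a13 lie next to each other on opposite strands, and the windows given for their promoters overlap.

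The genes whose levels were most like S100a13 over the 12 arrays were Notch2, Hhex, Il33, Hdac5 and Slc18b1, with correlations of 0.972, 0.966, 0.949, 0.949 and 0.946. For S100a4 they were Cyth3, Mef2a, Lancl2, Depp1 and Gkap1 (0.940, 0.939, 0.933, 0.933 and 0.933). Those nearest to S100a1 were Sema4g, Hsd17b14, Tspan8, Ahcyl2 and AU021092 (0.943, 0.938, 0.935, 0.935 and 0.934). Each of these genes had its highest mean in 344SQ. The points are the same 12 arrays in every case and include the step between the lines.

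**Figure D2:**
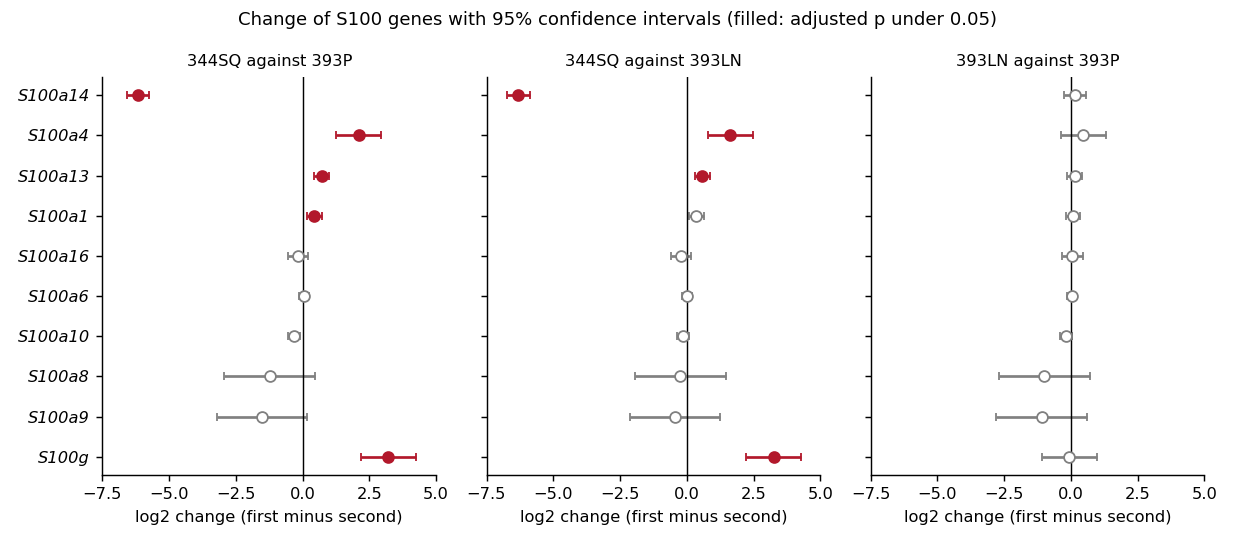
Log2 change of the 9 measured S100 members and of S100g in the 3 comparisons, with 95% confidence intervals from limma; filled red points passed an adjusted p of 0.05. S100a14 lies at -6.17 and -6.31 and S100a4 at 2.11 and 1.64 in the comparisons with 344SQ, and no gene passed in 393LN against 393P.

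S100a16, a widely expressed member, had levels of 12.08, 11.98, 11.91 and 12.27 in 344SQ, 12.63, 12.48, 11.86 and 12.13 in 393LN and 11.90, 12.40, 12.41 and 12.18 in 393P. The 3 lines overlapped, and the change of 344SQ against 393P was -0.17 with a 95% interval from -0.55 to 0.22. S100a6, or calcyclin, binds the ubiquitin ligase adaptor encoded by Cacybp, and its values ran from 13.82 to 13.94 in 344SQ, 13.80 to 13.90 in 393LN and 13.71 to 13.89 in 393P. Its change in 344SQ was 0.037 against 393P (interval -0.15 to 0.22) and 0.015 against 393LN (interval -0.17 to 0.20). These levels are close to the upper end of the scale, where the brightest intensity of the table was 21921, and whether the probe set could still show a rise was not tested.

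S100a10, the light chain that pairs with annexin A2 and binds plasminogen at the cell surface, passed in no comparison. Its level was 13.23, 13.22, 13.38 and 13.44 in 344SQ, 13.42, 13.58, 13.29 and 13.58 in 393LN and 13.66, 13.64, 13.69 and 13.59 in 393P. The 344SQ and 393P values did not overlap, and neither did those of 393LN and 393P. The change of 344SQ against 393P was -0.33 ± 0.10 and missed the threshold (limma adjusted p = 0.0553), but it passed under 6 of 20 other settings. Against 393LN the change of 344SQ was -0.15 (adjusted p = 0.379), with overlapping values. In the fit over all probe sets the adjusted p against 393P was 0.0750 for this probe set, and its 2 other probe sets had changes of -0.27 (adjusted p = 0.0816) and -0.70 (adjusted p = 0.0708). In all, the values of 344SQ and 393P did not overlap in 5 of the 9 members, where this held for 16.7% of all genes. For 344SQ and 393LN it held in 3 members (17.4% of all genes), and for 393LN and 393P in 1 member, S100a10 (10.3% of all genes).

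S100a8 and S100a9 encode the subunits of calprotectin, the calcium and zinc binding protein that fills the cytoplasm of neutrophils. Their levels were spread widely within each line and passed in no comparison. S100a8 was at 9.07, 11.32, 9.48 and 12.91 in 344SQ, 11.77, 11.18, 11.19 and 9.61 in 393LN and 12.59, 11.47, 10.85 and 12.82 in 393P. S100a9 was at 8.98, 11.65, 9.55 and 12.93 in 344SQ, 11.996, 11.49, 11.50 and 9.86 in 393LN and 12.88, 11.92, 11.41 and 13.01 in 393P. In both genes 344SQ replicates 1 and 3 and 393LN replicate 4 were the lowest of the 12 arrays, and 344SQ replicate 4 and 393P replicates 1 and 4 the highest. The lines overlapped in every comparison.

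The changes of 344SQ against 393P were -1.24 ± 0.78 for S100a8 (limma adjusted p = 0.391) and -1.53 ± 0.78 for S100a9 (adjusted p = 0.267), with intervals from -2.93 to 0.46 and from -3.22 to 0.17. Without 344SQ replicate 4 they were -1.98 (adjusted p = 0.0898) and -2.25 (adjusted p = 0.0605). Against 393LN the changes of 344SQ were -0.24 and -0.43, and those of 393LN against 393P were -0.998 and -1.10; none passed. The levels of the pair went together: over the 12 arrays their levels correlated with a Pearson r of 0.991 and a Spearman rho of 0.993, and with an r of 0.994 after each line's mean was taken off. This is a description of 12 arrays that share the same RNA for both genes.

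Some neutrophil markers went with the pair more closely than others. After taking off the line means, the mean of 20 measured neutrophil markers of 22 listed correlated with S100a8 and S100a9 with an r of 0.928 and 0.921. Taken singly, 13 of the 20 markers had an r above 0.5 with S100a8, with a median of 0.61. The closest was Stfa2l1 (0.97), while Mmp9 (0.098), Itgam (0.087), Lrg1 (-0.24) and Elane (-0.26) did not go with it; these 5 were picked after their values were seen. Stfa2l1 and Padi4 had the widest spread in 344SQ, with an SD of 2.66 and 2.06, so they weigh most in the list's mean there, and Padi4 had an SD of 0.14 in 393P. The list's mean was 7.66 to 8.85 in 344SQ, 8.25 to 8.71 in 393LN and 8.37 to 8.81 in 393P. The stefin gene Stfa2l1, high in neutrophils, was at 6.49, 8.74, 6.28 and 11.996 in 344SQ, 8.98, 8.82, 8.26 and 6.95 in 393LN and 10.10, 8.34, 8.18 and 10.68 in 393P, in a similar order to S100a8. Elane, an enzyme gene of immature neutrophils, was near the floor on all arrays, at 4.67 to 5.73 in 344SQ, 5.19 to 5.92 in 393LN and 4.09 to 5.42 in 393P. Of the 20 markers 5 were lower in 344SQ than in 393P (Ltf, Lcn2, Padi4, Il1b and Hdc) and 0 were higher, and the list's median change was -0.14. Of all genes, 5.62% were called lower and 4.86% higher in that comparison. The rest of the list did not pass in it, Cxcr2, Csf3r, Mpo, Camp and Ngp among them. The calls of Padi4 and Il1b held when any array was left out. Those of Hdc and Ltf each ended without any of 6 of the 8 arrays, and that of Lcn2 without 344SQ replicate 1 or 2 or 393P replicate 2. Hdc lost its call without 344SQ replicate 1, 2 or 3 or 393P replicate 1, 2 or 3, and Ltf without 344SQ replicate 1, 2 or 3 or 393P replicate 2, 3 or 4. The share of neutrophils in the tumours was not measured, and its part in the levels of S100a8 and S100a9 was not tested. The macrophage and monocyte list went the other way within lines, with an r of -0.71 for S100a8 and -0.73 for S100a9. This was not particular to it. The r was -0.79 and -0.80 for T, NK and B cells, -0.80 and -0.78 for the mesenchymal list, -0.64 and -0.62 for fibroblasts and -0.54 and -0.55 for endothelial cells. Squamous cells had -0.17 and -0.14, epithelial cells 0.41 and 0.45, and skeletal muscle 0.34 and 0.31. Of the 16 measured macrophage and monocyte genes, 4 were lower in 344SQ than in 393P and 0 higher (median -0.68). An unadjusted p under 0.05 was found for 12, in both directions: Cd163 and Mrc1, which were among them, had changes of 1.16 and 0.68. The share of all genes at that unadjusted threshold was not computed. Of the 4 called lower, Aif1 and Tyrobp kept the call when any array was left out. Cd14 lost it without any of 6 arrays (all but 344SQ replicate 4 and 393P replicate 1), and Fcer1g without any of 7 (all but 344SQ replicate 1). In 344SQ against 393LN 2 were lower, Aif1 and Tyrobp, and 1 was higher, Cd163 (change 1.64, limma adjusted p = 0.0429). Of all genes, 6.92% were called lower and 3.99% higher in 344SQ against 393LN. There the call of Tyrobp ended without any of 6 arrays and that of Cd163 without any of 7. The list's mean was 10.18 to 11.01 in 344SQ, 10.67 to 11.27 in 393LN and 10.95 to 11.51 in 393P.

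**Figure D3:**
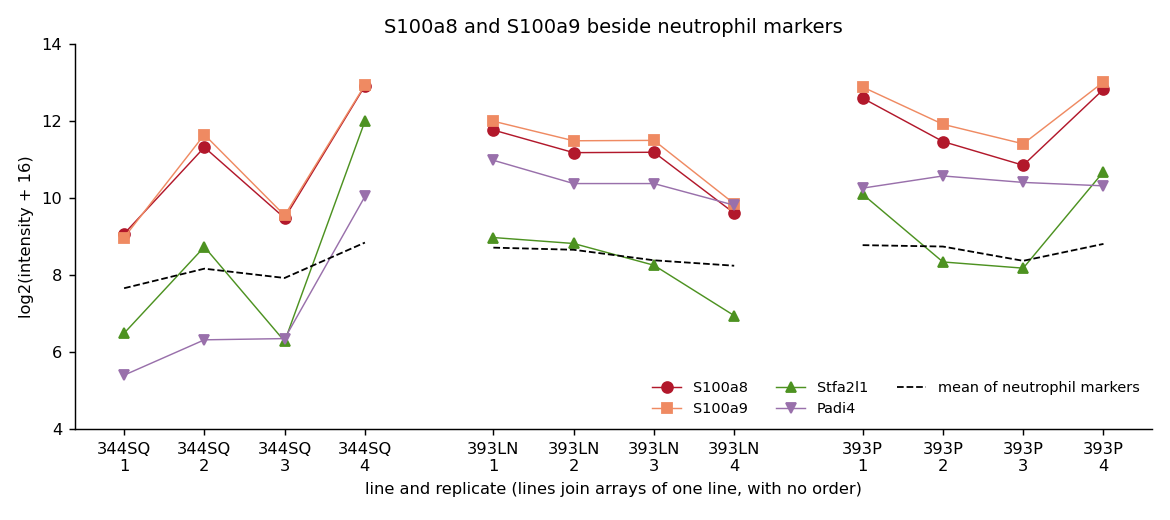
Levels of S100a8, S100a9 and the neutrophil genes Stfa2l1 and Padi4, with the mean of 20 neutrophil markers dashed, as log2(intensity + 16) on each array of 344SQ, 393LN and 393P. S100a8 and S100a9 run together and are highest on 344SQ replicate 4 and 393P replicates 1 and 4; Padi4 is between 5.40 and 6.35 on 3 344SQ arrays and above 9.8 on the other 9 arrays.

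The upstream letters of the calprotectin pair are shown because these genes moved together on all 12 arrays. They are the 250 bases before each start in RefSeq (GRCm38.p6), on the plus strand for S100a8 (chr3:90668821-90669070) and on the minus strand for S100a9 (chr3:90695722-90695971), with the matches to the 4 motifs in capitals.
S100a8: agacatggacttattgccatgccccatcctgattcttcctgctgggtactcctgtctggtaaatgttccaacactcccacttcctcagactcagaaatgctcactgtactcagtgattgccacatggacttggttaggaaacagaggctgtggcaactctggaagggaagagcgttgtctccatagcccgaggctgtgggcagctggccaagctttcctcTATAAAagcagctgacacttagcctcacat
S100a9: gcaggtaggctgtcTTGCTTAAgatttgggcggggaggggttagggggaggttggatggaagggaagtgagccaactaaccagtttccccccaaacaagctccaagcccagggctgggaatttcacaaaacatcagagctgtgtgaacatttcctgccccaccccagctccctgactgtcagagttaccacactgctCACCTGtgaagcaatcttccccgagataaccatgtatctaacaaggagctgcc
S100a8 holds TATAAA 30 bases before its start and none of the other motifs. S100a9 holds a match to TTGCNNAA that begins 236 bases before its start, and the reverse of CAGGTG 53 bases before it. The windows share no motif of the 4, which says only that these letters are not found in both, and the G and C content was 50.8% for S100a8, 53.6% for S100a9 and 57.2% for S100a4.

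By position, neighbouring genes of the cluster changed in different directions. On chromosome 3, in the order of the RefSeq annotation (GRCm38.p6), the measured S100 genes of the cluster run S100a1, S100a13, S100a14, S100a16, S100a3, S100a4, S100a5, S100a6, S100a8 and S100a9. S100a14, with a change of -6.17 in 344SQ against 393P, stands between S100a13, higher by 0.71, and S100a16, with a change of -0.17. S100a4, higher by 2.11, stands between S100a3 (-0.24, adjusted p = 0.542) and S100a5 (-0.45, adjusted p = 0.449). Within 250 kb of the cluster 9 other genes were measured, all on the side of S100a1. By limma 0 of these 9 passed in any of the 3 comparisons. Of all genes, 10.5% were called in 344SQ against 393P, 10.9% in 344SQ against 393LN and 2.45% in 393LN against 393P. An unadjusted p under 0.05 was found for 2 of the 9 when 344SQ was set against 393LN, for 1 between 393LN and 393P, and for 0 otherwise. The share of all genes at that unadjusted threshold was not computed. The changes of these 9 in 344SQ against 393P ran from -0.29 to 0.29. S100a7l2, S100a10 and S100a11 lie farther away on chromosome 3.

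**Figure D4:**
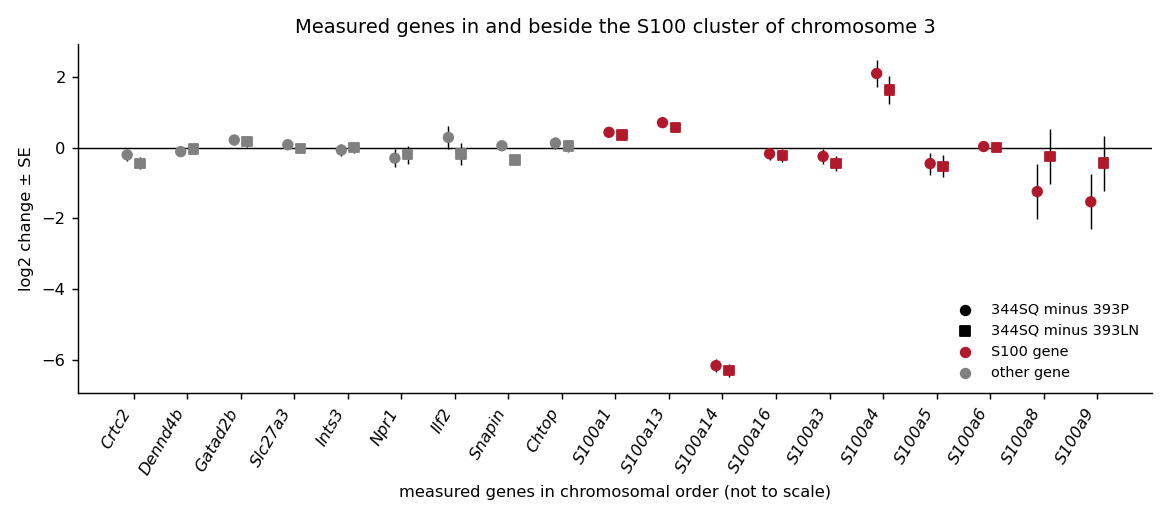
Log2 change ± SE of 344SQ against 393P (circles) and against 393LN (squares) for the measured genes in and within 250 kb of the S100 cluster of mouse chromosome 3, in chromosomal order and not to scale, with S100 genes in red. S100a14 drops to -6.17 and -6.31 between neighbours whose changes lie between -0.22 and 0.71.

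Of 9 further family genes listed, 5 were measured, and 1 of them passed. S100g, which encodes calbindin D9k, the vitamin D dependent calcium carrier of the intestine, is on the X chromosome. Its level was 8.83, 8.40, 7.62 and 5.92 in 344SQ, against 4.35, 4.53, 4.42 and 4.43 in 393LN and 4.09, 4.60, 4.42 and 4.88 in 393P. All 4 344SQ values lay above the others, which stood near the floor, and replicate 4 was the lowest of the 4. The change was 3.20 ± 0.47 against 393P (limma adjusted p = 0.00112) and 3.26 ± 0.47 against 393LN (adjusted p = 0.00122), and both calls held when any array was left out. S100a3, S100a5, S100a7l2 and S100b, the glial member, did not pass in any comparison, and S100a7l2 was near the floor in every line, where it averaged 4.70 in 344SQ, 4.96 in 393LN and 4.77 in 393P.

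Among genes of S100 partners and receptors, Fgf1 rose and Anxa6 fell in both comparisons with 344SQ. Of 29 measured in 344SQ against 393P, 2 passed as higher and 3 as lower (median -0.065), and in 344SQ against 393LN 1 passed as higher and 2 as lower (median -0.030). Of all genes, 10.5% and 10.9% were called in these comparisons. An unadjusted p under 0.05 was found for 9 and 10 of the 29. At that unadjusted threshold the share of all genes was not computed for any comparison. The values did not overlap for 6 and 9 of the 29, where this held for 16.7% and 17.4% of all genes. In 393LN against 393P 0 passed by limma, where 2.45% of all genes were called, and 5 had an unadjusted p under 0.05. Apart from Fgf1, the annexin gene Anxa6 was lower in 344SQ, by -1.01 ± 0.21 against 393P (adjusted p = 0.00925) and -1.08 ± 0.21 against 393LN (adjusted p = 0.00701). Plat, the tissue plasminogen activator gene, was lower against 393P by -1.44 ± 0.28 (adjusted p = 0.00590), at 9.92, 10.44, 10.60 and 10.66 in 344SQ and 11.38, 11.99, 11.77 and 12.26 in 393P. Cacybp, the partner of S100a6, was lower against 393LN by -0.63 ± 0.13 (adjusted p = 0.00920).

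Of the receptor genes, Ager, which encodes RAGE, was at 7.07, 6.31, 7.08 and 4.94 in 344SQ, 5.37, 5.21, 4.76 and 5.46 in 393LN and 5.31, 4.73, 4.88 and 5.05 in 393P. It passed in 344SQ against 393P (1.36 ± 0.39, limma adjusted p = 0.0447), although 344SQ replicate 4 lay within the 393P range, and the call ended when any of the other 7 arrays was left out. The oxidase subunit gene Cyba, whose complex calprotectin serves in phagocytes, had a change of -0.40 (adjusted p = 0.0321), which no longer passed once any of 7 arrays was dropped, all but 344SQ replicate 3. The mean of Tlr4 was 9.40 in 344SQ, 9.21 in 393LN and 9.55 in 393P. Anxa2, the partner of S100a10, had means of 13.88, 13.66 and 13.78, and Anxa1, the partner of S100a11, 13.67, 13.93 and 13.98, and none of these 3 genes passed in any comparison.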

How the data were processed

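The deposited table holds probe set intensities on a linear scale; the authors' software and normalization are not given in the sources used here. Intensities run from 1 to 21921, and 100% of their log2 values have at most 2 decimals (tolerance 1e-06 on 100 times the log2 value). The design text names the 430A 2.0 chip, a smaller one than 45101 probe sets call for. Of these, 34945 have 1 gene symbol, 932 several, 9160 none in the annotation given, and 64 are controls. No other value columns were present (0). The number of arrays limits the precision.

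Values were taken as log2(intensity + 16), with no further scaling or filter. One mean per line was fitted over 12 arrays with limma 3.58.1 in R 4.3.3 (lmFit, eBayes), and p-values are two-sided. The steps were tested on simulated data with 200 changed genes.

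Replicate numbers follow accession order. The members and gene lists were chosen with earlier results of these data known. Named were all members, the other S100 genes, up to 8 partners and 8 cornified envelope genes that passed, Ager, Tlr4, Anxa1 and Anxa2, and the 5 genes most like each member that passed. Alternatives were 2 scalings, pseudocounts of 1 and 64, dropping the dimmest 25% or 50% of genes, other probe set choices, other fits, and each array left out. A further allele that all groups share is not reported here.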

Additional observations from a re-analysis of the deposited data

Results flagged for a closer look

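A pair of values stood apart from the other arrays of their line by Dixon's criterion for 4 samples, which chance meets in about 1 of 20 groups; 42 groups of 14 S100 genes were looked at. S100a1 on 393P replicate 1 was at 11.16, below 11.33, 11.33 and 11.35 on the other 393P arrays. S100a6 on the same array was at 13.71, below 13.87, 13.89 and 13.88. This array had an actin 3' to 5' ratio of 1.47, the highest of the 12, and its part in these values was not tested. Without it the change of S100a1 in 344SQ against 393P was 0.40 (limma adjusted p = 0.0899).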

How the results depend on the processing

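Of 27 changes (9 members in 3 comparisons), 23 kept their side of the threshold under every alternative, and 0 reversed after a call. S100a1 in 344SQ against 393P lost its call in 11 of 19 alternatives (highest adjusted p 0.121). S100a1 in 344SQ against 393LN passed in 4 of 19, S100a10 in 344SQ against 393P in 6 of 20, and S100a4 in 344SQ against 393LN failed in 2 of 18. The number of members lower in 344SQ than in 393P was 2, with S100a10 added, under quantile normalization, with a pseudocount of 64, without the dimmest 25% or 50% of genes, with the mean of all probe sets and with a trended robust prior. Why S100a10 passed under these settings was not tested. The number higher in 344SQ than in 393LN was 1 to 2 with an array left out, 1 without 344SQ replicate 2 or 393LN replicate 3. Over all genes, 393LN against 393P gave 319 higher and 127 lower in the fit of 12 arrays, 118 and 56 with its 8 arrays alone, and as few as 107 and 48 with an array left out. With an array left out the counts of 344SQ fell to as few as 562 higher and 653 lower against 393P, and 431 higher and 747 lower against 393LN. No paired analysis was possible because the labels give sample names and no replicate numbers shared between lines.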

Other observations

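The S100 cluster is followed on chromosome 3 by genes of the cornified envelope, the cross-linked protein shell of skin cells, among them large proteins with an S100-like start. Of 16 measured genes of this list, 3 were lower and none higher in 344SQ than in 393P, where 5.62% of all genes were called lower. In 344SQ against 393LN 4 were lower and 1 higher, where 6.92% of all genes were called lower and 3.99% higher. The list was written with earlier results of these data known. Tchh, which encodes trichohyalin of hair follicles and carries such a start, was at 6.08, 6.19, 5.72 and 4.46 in 344SQ, 7.96, 9.43, 7.96 and 6.66 in 393LN and 9.35, 7.61, 7.99 and 7.77 in 393P. Its change was -2.57 ± 0.57 against 393P (limma adjusted p = 0.0129) and -2.39 ± 0.57 against 393LN (adjusted p = 0.0191). Involucrin, Ivl, was lower by -1.97 ± 0.25 (adjusted p = 0.000411) and -2.10 ± 0.25 (adjusted p = 0.000368).

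The small proline-rich gene Sprr1a differed between the 393 lines: it was at 12.02, 11.76, 11.31 and 12.03 in 393LN and 12.83, 13.03, 13.06 and 13.37 in 393P, a change of -1.30 ± 0.17 (adjusted p = 0.00422). In 344SQ it was at 12.96, 12.61, 12.89 and 12.92, above 393LN (change 1.07, adjusted p = 0.00210) and within the spread of 393P on 3 of 4 arrays. Lor, the loricrin gene, was lower in 344SQ by 1.03 and 1.12 on the log2 scale, calls that ended without any of 8 arrays against 393P and without 344SQ replicate 2, 3 or 4 or 393LN replicate 3 against 393LN. Tchhl1, which averaged 4.19 in 344SQ, 4.91 in 393LN and 4.22 in 393P, was lower in 344SQ than in 393LN, which no longer passed once any of 5 arrays was dropped: 344SQ replicates 1, 2 and 3 and 393LN replicates 3 and 4.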
